A study of Macaca mulatta with 24 samples.

Results

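Smooth muscle and the enteric nervous system form the outer layers of the colon wall, and 45 genes that mark them were followed in the colon of rhesus macaques (Macaca mulatta) after total-body irradiation (TBI). The genes were listed by cell type and role: 20 of the contractile apparatus of smooth muscle, 4 of pacemaker cells, muscle channels and muscle receptors, 16 of enteric neurons and 5 of enteric glia. A probe was found for 38 of the 45, namely 33 by gene symbol, 3 by the NCBI gene ID behind a placeholder symbol (MYOCD, ELAVL3 and UCHL1) and 2 by the probe description (CHRM2 and TAGLN), and each gene was read through its brightest probe. No probe used here carried the name of MYH11, MYL9, CNN1, SMTN, ACTN1, ANO1 or NOS1, so these 7 genes were not analysed. The probe of CHAT, the enzyme that makes acetylcholine, was not well above background on any of the 24 arrays and was not tested, which left 37 of the 38220 tested probes.

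The animals were young adult males, as stated in the methods. They received a single uniform exposure to 0, 6.7 or 7.4 Gy of cobalt-60 gamma rays. A segment of about 3 cm of colon was taken at necropsy, and a small amount of its whole gut tissue by weight was used for RNA. The 7 groups were unirradiated controls (0 Gy, labelled day 4 and compared with every day, n = 4), 6.7 Gy and 7.4 Gy at day 4 (n = 4 each), 6.7 Gy and 7.4 Gy at day 7 (n = 4 each) and 6.7 Gy and 7.4 Gy at day 12 (n = 2 each). Each RNA sample was hybridised to 1 one-colour array, with 4 arrays to a slide and 6 slides scanned on 2 days. The tissue was taken as a whole piece, without separating mucosa from muscle.

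Intestinal smooth muscle contracts through actin and myosin filaments that are anchored by desmin and regulated by proteins such as transgelin, the tropomyosins and caldesmon, and its differentiated state depends on myocardin, a coactivator of serum response factor. Peristalsis is timed by pacemaker cells and driven by the enteric nervous system, a network of neurons and supporting glia that lies between and beneath the muscle layers and signals with acetylcholine, nitric oxide and neuropeptides such as VIP and substance P. In RNA from a whole piece of gut, fewer cells of a type and less RNA per cell cannot be told apart, and neither can a change in the genes from a change in how much muscle the piece contained.

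All values are log2 intensities relative to the 75th percentile of their own array, so that 0 is that percentile and a difference of 1 is a 2-fold difference. A gene was called when limma gave a Benjamini-Hochberg adjusted p under 0.05 over all tested probes and the change was at least 2-fold. Levels of different genes were not compared, because probes differ in how brightly they bind. The markers that define the layers were plainly detected: on 22 arrays or more, the scanner software counted all 15 contractile genes and all 3 channel and receptor genes as well above background, as it did 11 of the 15 neuron genes and 3 of the 5 glia genes. The dim genes were ELAVL3 (well above background on 9 arrays), RET (4), SNAP25 (17), GFAP (4) and CDH19 (14).

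The arrays differed widely in contractile gene signal within groups, and this is given before the comparisons because it bears on each of them. ACTG2, the gamma actin of enteric smooth muscle, stood at 8.24, 8.96, 7.30 and 6.72 on replicates 1 to 4 of the 6.7 Gy day 4 group, a range of 4.74-fold among 4 animals of the same dose and day. The controls lay closer together, at 8.81, 8.60, 8.03 and 8.40, and so did the 7.4 Gy day 4 animals at 8.11, 8.52, 8.32 and 8.55. Replicates 3 and 4 of the 6.7 Gy day 4 group were thus below every control, and replicate 2 above every control. DES, the muscle intermediate filament desmin, split the same way, at 7.69 and 7.93 on replicates 1 and 2 against 6.91 on each of replicates 3 and 4.

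The split ran through the whole contractile list. On replicates 1 and 2 of the 6.7 Gy day 4 group, 14 of the 15 contractile genes were higher than on replicates 3 and 4, with TPM1 the exception and ACTA2 read on replicate 3 alone of the lower pair, and the median difference was 1.35 on the log2 scale against 0.06 over all tested probes. The widest gaps were those of SYNM (synemin, 1.97), TPM2 (beta tropomyosin, 1.90), MYOCD (myocardin, 1.62) and ACTG2 (1.59). The gap was shared by some nerve genes and not by others. ELAVL4, an RNA-binding protein of neurons, was 1.52 higher on replicates 1 and 2, UCHL1, the pan-neuronal marker PGP9.5, was 1.02 higher, and PRPH, the peripheral neuron filament peripherin, was 1.05 higher, whereas NEFM differed by 0.05 and TAC1, the precursor of substance P, was lower there by 0.84 (log2 difference -0.84). In all, 9 of the 19 neuron and glia genes tested were higher on both of replicates 1 and 2 and 3 were lower on both. With 2 arrays against 2, some genes separate in this way by chance. The share of all tested probes that did so was not counted, for these genes or for the 14 of 15 contractile genes.

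Averaged over the 15 genes and set against each gene's own mean over all arrays, the contractile signal was 0.15 and 0.73 on replicates 1 and 2 of the 6.7 Gy day 4 group and -0.78 and -0.91 on replicates 3 and 4. Those last arrays held the lowest value of the series for 4 and 7 of the 15 genes. Replicate 1 of the 7.4 Gy day 7 group came next at -0.74 and was the lowest array for 3 genes, and the controls ranged from -0.04 to 0.47. Replicates 1 and 2 of the 6.7 Gy day 4 group lay at position 1 of slides 5 and 6, and replicates 3 and 4 lay at position 2 of slides 1 and 2, which were scanned on the other day, so that within this group the animal, its slide, the place on the slide and the day of scanning cannot be told apart. Lists of markers for other colon cell types were read on the same arrays. The epithelial list (10 genes tested) averaged -0.31 and -0.94 on replicates 1 and 2 and -0.30 and -0.20 on replicates 3 and 4, and the fibroblast list (7 genes) averaged 0.29 and 0.45 against 0.22 and -0.13. The gap was wider in the pericyte list (4 genes), at 0.12 and 0.94 against 0.07 and -0.23, and widest in the mesothelium list (3 genes), which marks the outer surface of the gut, at 0.24 and 1.86 against -0.32 and -1.22. The mesothelium list also ranged from -2.01 to 0.90 among the controls. Only 1 of its 3 genes was well above background on 22 arrays or more, with WT1 so on 18 and LRRN4 on 5. Its median within-group SD was 1.02, against 0.34 over all tested probes. The endothelial, leukocyte, skeletal muscle and fat cell lists did not separate the pairs. Their part in the split was not tested.

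**Figure D1:**
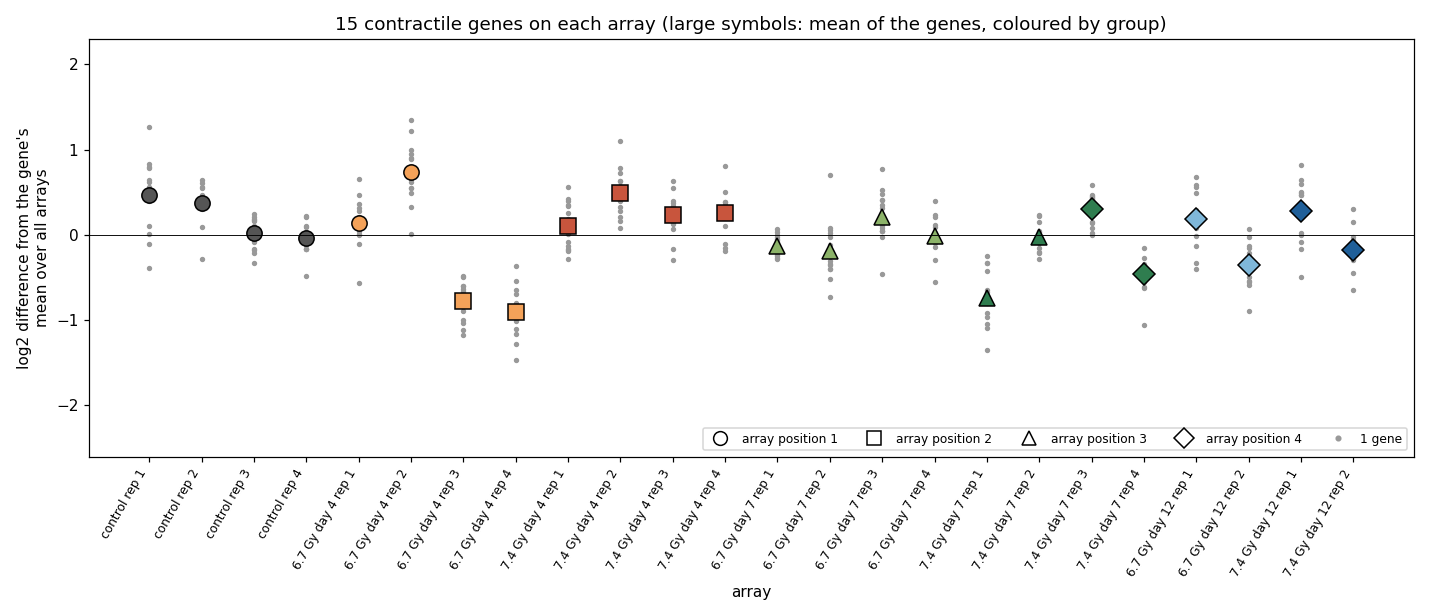
Contractile gene signal by array. The y axis is the log2 difference of each of the 15 contractile genes (grey points) from that gene's mean over all arrays, the x axis lists the 24 arrays by group, and large symbols are the mean of the genes with their shape giving the array's position on the slide. Replicates 3 and 4 of the 6.7 Gy day 4 group (-0.78 and -0.91) lie far below replicates 1 and 2 (0.15 and 0.73), and replicate 1 of the 7.4 Gy day 7 group (-0.74) is the other low array.

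By their median SD within groups, the contractile, neuron and glia genes were also more variable than the tested probes as a whole. The median within-group SD was 0.45 for the contractile genes and 0.58 for the 19 neuron and glia genes, against 0.34 over all tested probes. It was 0.34 for the 3 channel and receptor genes. Variation was lowest for SOX10 (SD 0.15), the transcription factor of glia, and GAP43 (0.16), a growth-cone protein, and highest for GFAP (0.97), which was mostly below background. Whether muscle, nerve and epithelium varied together was examined for 4 pairs of genes over the 24 arrays, after subtraction of each group's mean, with ACTG2 standing for smooth muscle because MYH11 was not analysed. ACTG2 and ELAVL4 had the highest coefficient, with Pearson's r = 0.58 (permutation p = 0.0399, adjusted over the 4 pairs 0.160) and Spearman's rho = 0.50 (permutation p = 0.0547, adjusted 0.219), so the relation did not pass the correction. Without the 2 arrays farthest from the median of ACTG2, both named above as low in contractile signal, r was 0.48. Within array positions 1, 2 and 3 (6 arrays each) r was 0.78, 0.87 and 0.85, and within position 4 it was -0.08. The values were centred on the mean of the whole group and not anew within a position, so the 6.7 Gy day 4 split stayed in positions 1 and 2. The arrays of that group stood at 0.43 and 1.16 for ACTG2 at position 1 and at -0.505 and -1.08 at position 2. For ELAVL4 they stood at 0.27 and 1.26, then -0.42 and -1.10. These r values are thus not free of the split.

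The remaining pairs did not pass either. ACTG2 with EPCAM, an epithelial adhesion molecule, gave r = -0.11 and rho = -0.04 (permutation p = 0.656 and 0.876, adjusted 0.656 and 0.876), and r without the 2 farthest arrays was -0.17. ACTG2 with SOX10 gave r = -0.18 and rho = -0.11 (permutation p = 0.468 and 0.642, adjusted 0.625 and 0.856), with -0.01 without the farthest arrays. ELAVL4 with SOX10 gave r = -0.39 and rho = -0.36 (permutation p = 0.0856 and 0.136, adjusted 0.171 and 0.271), with -0.42 without the farthest arrays. By array position, from 1 to 4 and with the same centring on whole groups, r was -0.21, -0.11, 0.56 and -0.39 for ACTG2 with EPCAM. It was -0.21, -0.35, -0.80 and 0.89 for ACTG2 with SOX10, and -0.54, -0.18, -0.92 and -0.18 for ELAVL4 with SOX10.

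**Figure D2:**
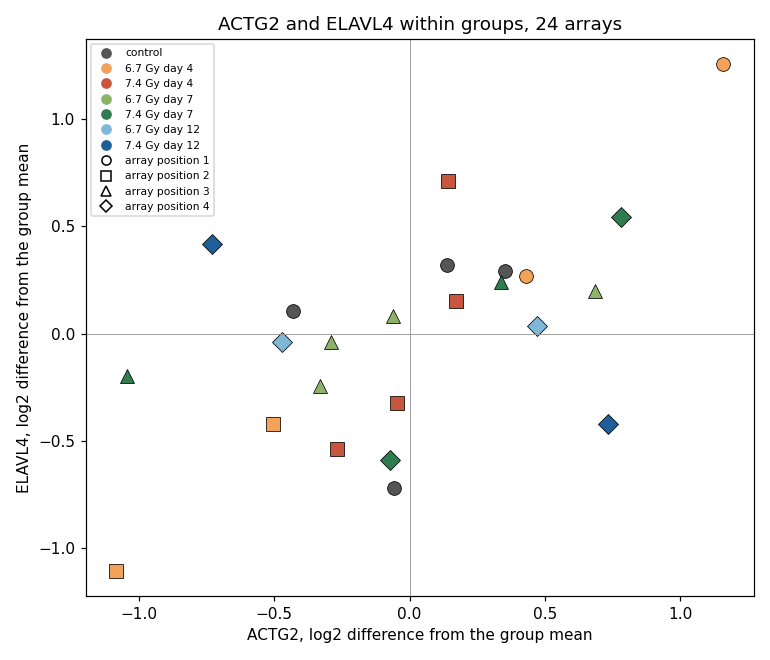
ACTG2 against ELAVL4 on 24 arrays. Both axes are log2 differences from the mean of the array's own group, colours give the group and shapes the position on the slide. The coefficient is r = 0.58, with replicates 3 and 4 of the 6.7 Gy day 4 group at the lower left and replicate 2 of that group at the upper right.

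Against this spread, contractile genes showed no called change in any irradiated group against control. On day 4 after 6.7 Gy, 0 of the 37 members were called, whereas 3.61% of all tested probes were, 1.83% higher and 1.78% lower. An unadjusted p under 0.05 was found for 2 members and for 25.9% of all probes. All 15 contractile genes had estimates below control, with a median log2 change of -0.42 against -0.07 over all probes, but none passed. The log2 change (± SE) was -0.66 ± 0.44 for ACTG2 (adjusted p = 0.371), -0.53 ± 0.28 for DES (adjusted p = 0.249) and, for SYNPO2, an actin-binding protein of muscle, -0.68 ± 0.34 (adjusted p = 0.218). Without replicates 3 and 4 of that group, an alternative chosen after their values were seen, the contractile median was 0.23 in place of -0.42, so its sign rested on those arrays. Leaving out 1 array gave medians from -0.72 (without replicate 2 of that group) to -0.15 (without replicate 4), and -0.20 without replicate 3.

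On day 4 after 7.4 Gy the contractile genes lay on both sides of control, 8 higher and 7 lower, with a median log2 change of 0.06 against -0.08 over all probes. That median was below 0 without control replicate 3 (-0.03), control replicate 4 (-0.03) or replicate 2 of the irradiated group (-0.01). The log2 change was -0.09 ± 0.44 for ACTG2 (adjusted p = 0.913) and -0.15 ± 0.28 for DES (adjusted p = 0.753). By brightest probe it was highest for PDLIM7, an actin-associated LIM protein, at 0.56 ± 0.29 (adjusted p = 0.187). The brightest probe of ACTA2, the alpha actin of smooth muscle, was read on 3 controls and gave 0.32. Its other probes, well above background on all 24 arrays, gave 0.63 and 0.66 (adjusted p = 0.0865 and 0.0450), short of 2-fold. On day 7 the median was -0.25 after 6.7 Gy and -0.46 after 7.4 Gy, with all-probe medians of -0.02 and 0.01, and 12 and 14 of the 15 estimates were below control. The 7.4 Gy median was -0.29 without replicate 1 of that group, and the 6.7 Gy median was -0.39 without replicate 3 of its group. The arrays of 7.4 Gy day 7 for ACTG2 read 6.84, 8.22, 8.66 and 7.81, so that replicate 1 was far below the others and the highest array was within the control range. On day 12 the median was -0.24 after 6.7 Gy and -0.14 after 7.4 Gy, and ACTG2 read 8.87 and 7.93 in the first of these groups and 9.01 and 7.54 in the other. With only 2 arrays a group these medians rested on single animals: the 6.7 Gy median was -0.48 without replicate 1 and 0.00 without replicate 2, and the 7.4 Gy median was -0.38 without replicate 1 and 0.05 without replicate 2. Without control replicate 1 they were -0.14 and -0.07, and the 7.4 Gy median was -0.09 without control replicate 2 and -0.23 without control replicate 4. Under spike-in scaling, which sets each array by its control spots, the 7.4 Gy day 12 median was 0.15 instead of -0.14, and the other contractile medians kept their sign under every scaling tried.

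The brightest probe of TPM1, which encodes alpha tropomyosin, had estimates above control on days 7 and 12, unlike most of the list, but its other probes did not all share them. The log2 change of the brightest probe was 0.42 ± 0.24 after 6.7 Gy and 0.27 ± 0.24 after 7.4 Gy on day 7, and 0.47 ± 0.27 and 0.58 ± 0.27 on day 12, with adjusted p from 0.605 to 0.785, and it lost 2 of the 4 control spots to the scanner's outlier flags. Of the other 3 probes, all well above background on 24 arrays, the dimmest was above control in these groups (0.63 to 1.13), whereas the other pair had -0.02 and -0.10 on day 7 after 6.7 Gy, -0.16 and -0.29 on day 7 after 7.4 Gy, -0.03 and 0.01 on day 12 after 6.7 Gy and 0.36 and 0.34 on day 12 after 7.4 Gy. Between days the brightest probe passed the adjusted p without reaching 2-fold: it was higher on day 7 than on day 4 by 0.44 ± 0.14 (adjusted p = 0.0244) and higher on day 12 than on day 4 by 0.62 ± 0.17 (adjusted p = 0.0125). The dimmest probe was higher on day 7 than on day 4 by 1.50 (adjusted p = 0.000103), and the other pair had log2 changes of 0.28 and 0.24 (adjusted p = 0.228 and 0.321).

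**Figure D3:**
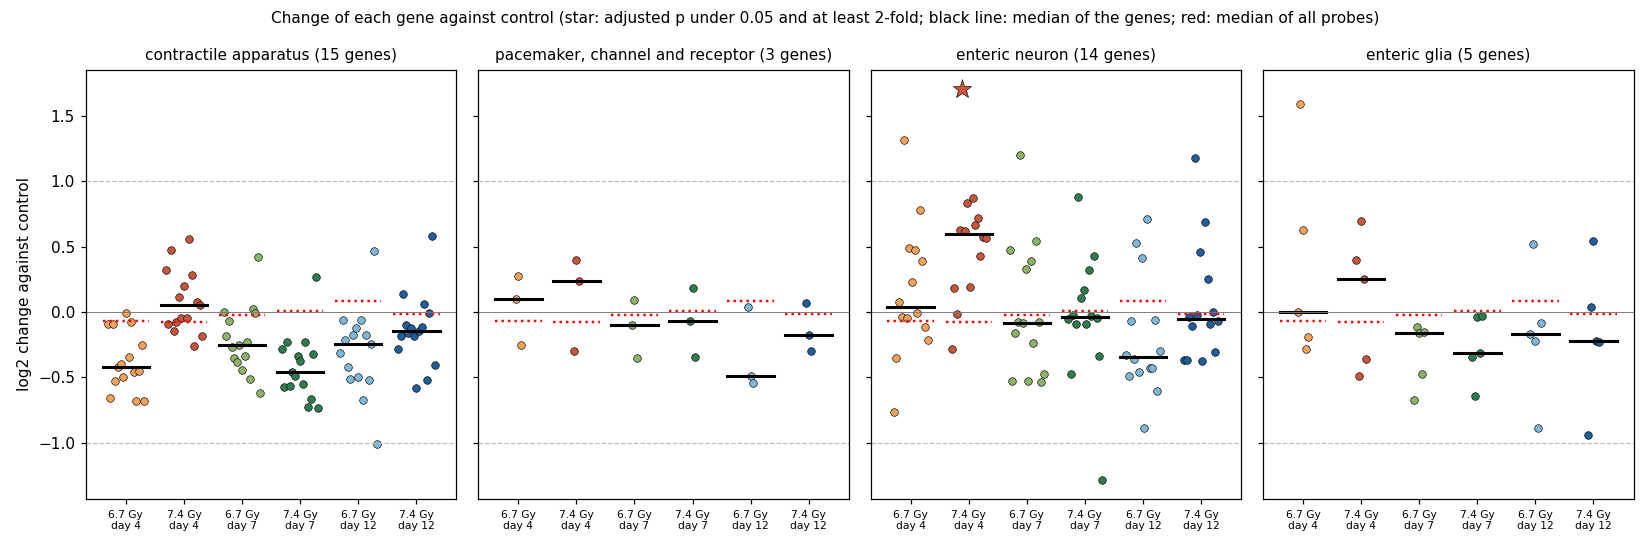
Change of each tested gene against control, by list. The y axis is the log2 change, the x axis the irradiated groups, each point is a gene, black lines are the median of the list and red dotted lines the median of all tested probes. The contractile medians run from -0.46 (7.4 Gy day 7) to 0.06 (7.4 Gy day 4), and the only star, a called change, is NEFM at 1.71 in the 7.4 Gy day 4 group.

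No channel or receptor gene was called. CHRM2, a muscarinic acetylcholine receptor of gut muscle, read -0.57, -0.58, -0.44 and -0.44 in the controls and -0.67, -0.89, -0.59 and 0.52 on day 4 after 6.7 Gy. It read -0.61, -1.12, -0.64 and -0.87 on day 4 after 7.4 Gy, all below the controls, with a log2 change of -0.30 ± 0.23 (adjusted p = 0.379). The day 7 arrays read -0.61, -0.17, -0.84 and -0.82 after 6.7 Gy and -0.49, -0.63, -0.42 and -0.76 after 7.4 Gy, and the day 12 arrays -0.35 and -0.60, then -0.25 and -0.63. Those groups overlapped the controls. Its other probe was well above background on only 10 arrays and had a log2 change of -1.07 on day 4 after 6.7 Gy, against 0.10 for the brighter probe, so the probes disagreed. CHRM3, the muscarinic receptor that triggers contraction, was lower on day 12 than on day 4 by 0.67 (log2 change -0.67 ± 0.20, adjusted p = 0.0213), short of 2-fold. Its other probe gave -0.61 for that comparison. Against control on day 4 after 7.4 Gy that probe opposed the brighter one (-0.51 against 0.40). KCNMB1, the beta subunit of the muscle potassium channel BK, followed the contractile genes on the split arrays, at 0.22, 0.92, -0.87 and -1.12 on day 4 after 6.7 Gy, and its log2 change there was -0.25 ± 0.35 (adjusted p = 0.692).

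Among the enteric neuron genes, the highest estimates lay on day 4 after 7.4 Gy. The median log2 change of the 14 genes tested was 0.60 against -0.08 over all probes, and 12 of 14 estimates were above control. The median was 0.31 with normexp background correction and 0.87 with spike-in scaling, and between 0.44 and 0.65 with 1 array left out. Of the 37 members 1 was called, higher, and 0 were called lower, against 7.05% of all probes, 3.36% higher and 3.68% lower. An unadjusted p under 0.05 was found for 4 members and 33.9% of all probes. The called gene was NEFM, the medium neurofilament chain of neuronal axons. It read -2.14, -1.82, -0.99 and -3.29 in the controls and 0.90, -0.83, -0.94 and -0.54 on day 4 after 7.4 Gy. Every irradiated array was above every control, the closest pair being -0.94 and -0.99, and the change was 1.71 ± 0.55 (3.26-fold, adjusted p = 0.0331).

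NEFM lay above the control mean in the other irradiated groups as well, without passing. It read -0.66, -0.78, 0.11 and -1.65 on day 4 after 6.7 Gy (change 1.31 ± 0.55, adjusted p = 0.131) and -1.42, -0.09, -0.59 and -1.33 on day 7 after 6.7 Gy (1.20 ± 0.55, adjusted p = 0.488). On day 7 after 7.4 Gy it read -1.40, -1.08, 0.05 and -2.29 (0.88 ± 0.55, adjusted p = 0.588). The day 12 arrays read -1.29 and -1.77 after 6.7 Gy, then -1.53 and -0.23 after 7.4 Gy. These arrays overlapped the controls in all of those groups, and the 7.4 Gy and 6.7 Gy animals were not shown to differ on any day.

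The NEFM call was not firm. It kept its direction in the batches that held both groups. Within slides 3 and 4, with 1 array of each group, the 7.4 Gy day 4 array was higher by 1.88 and 2.46, and within scan day 2 (4 arrays against 2) it was higher by 1.79. With scan day in the fit the change was 1.76 and the adjusted p was 0.0524. The change was 1.30 without control replicate 4, which was the lowest of all arrays (adjusted p = 0.120), 1.29 without 7.4 Gy day 4 replicate 1, the highest (adjusted p = 0.125), 1.68 without control replicate 1 (adjusted p = 0.0647) and 1.77 without 7.4 Gy day 4 replicate 4 (adjusted p = 0.0531). NEFM had 1 probe. NEFL, the light chain of the same filament, had 4, and on day 4 after 7.4 Gy their log2 changes were 0.63 (adjusted p = 0.229) for the brightest and 0.97, 1.06 and 0.48 (adjusted p = 0.136, 0.0193 and 0.501) for the others, which were well above background on 16 to 21 arrays. The NEFL probe at 1.06 thus met both limits of a call, but genes were counted through their brightest probe.

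STMN2, a microtubule regulator of growing axons, passed the adjusted p without reaching 2-fold. It read 2.05, 1.82, 1.79 and 2.24 in the controls, 2.36, 2.40, 2.46 and 2.59 on day 4 after 6.7 Gy and 3.51, 3.08, 2.59 and 2.21 on day 4 after 7.4 Gy. The 6.7 Gy animals were all above the controls, but the change was 0.48 ± 0.27 (adjusted p = 0.274). After 7.4 Gy the change was 0.87 ± 0.27 (adjusted p = 0.0274), with the lowest array within the control range. Counting NEFM, STMN2 and the glial gene SOX10, 3 of 37 members had an adjusted p under 0.05 on day 4 after 7.4 Gy, 2 higher and 1 lower, against 8.34% and 11.7% of all probes. Arrays did not overlap the controls there for 3 members that were higher (UCHL1, NEFM and TUBB3) and 2 that were lower (CHRM2 and SOX10), against 10.6% and 12.9% of all probes, and on day 4 after 6.7 Gy for 1 higher (STMN2) and 1 lower (ELAVL3), against 7.51% and 8.52%.

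The other neuron genes of day 4 did not pass. After 7.4 Gy the log2 change was 0.57 ± 0.29 for UCHL1 (adjusted p = 0.175), 0.66 ± 0.33 for SYT1, a calcium sensor of synaptic vesicles (adjusted p = 0.165), and 0.62 ± 0.32 for PRPH (adjusted p = 0.174). For TUBB3, the neuronal beta tubulin, whose probe targets a transcript recorded as non-coding, it was 0.43 ± 0.19 (adjusted p = 0.112). The other PRPH probe, dimmer but well above background on all 24 arrays, opposed the brightest one there (-0.27, adjusted p = 0.102). That probe was higher on day 7 than on day 4 by 0.30 (adjusted p = 0.0103). Of 27 other probes of 18 members, 16 shared the sign of the brightest probe on day 4 after 7.4 Gy. ELAVL4 read -1.99, -1.97, -2.18 and -3.01 in the controls, -2.37, -1.39, -3.06 and -3.74 on day 4 after 6.7 Gy and -2.64, -1.39, -2.43 and -1.95 on day 4 after 7.4 Gy. On day 7 it read -2.86, -3.06, -2.62 and -2.73 after 6.7 Gy and -2.96, -2.52, -2.22 and -3.35 after 7.4 Gy, and on day 12 -2.74 and -2.82, then -3.08 and -2.24. All these ELAVL4 groups overlapped the controls, and its log2 changes ran from -0.53 to 0.19 with adjusted p from 0.617 to 0.940. The other ELAVL4 probe, well above background on all 24 arrays, had changes from -0.22 to 0.40. It was above control on day 4 after 6.7 Gy (0.04) and on days 7 and 12 after 7.4 Gy (0.18 and 0.19). The brighter probe was below control in those groups. For TAC1 the log2 change on day 4 was 0.78 ± 0.49 after 6.7 Gy and 0.72 ± 0.49 after 7.4 Gy (adjusted p = 0.328 and 0.317), and its other 3 probes gave 0.66 to 0.88 and 0.64 to 0.98.

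Array position went with the group in the day 4 comparison. All 4 controls lay at position 1 and all 4 arrays of 7.4 Gy day 4 at position 2, and the only group with arrays at both was 6.7 Gy day 4, so a fit with position as a block took the position effect from its replicates 1 and 2 against 3 and 4. In that fit 14 of the 37 members were called higher on day 4 after 7.4 Gy and 0 lower, against 4.80% and 3.04% of all probes. The 14 were SYNM, LMOD1, TPM2, CALD1, FLNA, MYOCD, PDLIM7, KCNMB1, UCHL1, SYT1, PRPH, NEFL, RET and TUBB3, with log2 changes of up to 2.47, that of RET. The RET probe was dim, being well above background on 0 controls and 1 array of 7.4 Gy day 4. NEFM was not among the 14 (1.76, adjusted p = 0.294). The log2 change of SYNM was 2.25 with the block and 0.29 without it, and that of ACTG2 was 1.50 with it (adjusted p = 0.145) and -0.09 without it, the difference being the gap of each gene within the 6.7 Gy day 4 group. With position and scan day as blocks together 1 member was called, MYOCD. Dose and position were linked here only through those 4 arrays, in which position went with the animal, the slide and the scan day. The block therefore cannot tell dose from position. The day 7 and day 12 groups shared no position with the controls.

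**Figure D4:**
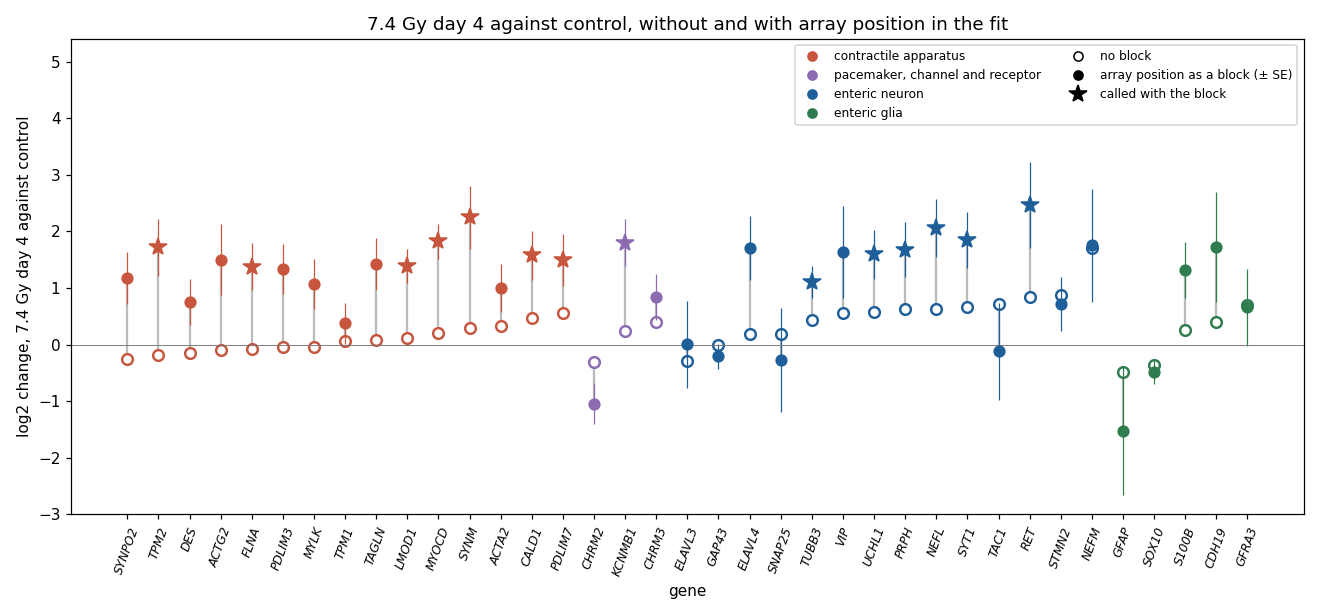
Log2 change of the 37 tested genes between 7.4 Gy day 4 and control without (open circles) and with (filled symbols, ± SE) array position in the fit. Genes are ordered by list and by change, colours give the list, and stars mark the 14 genes called with the block. With the block SYNM stands at 2.25 in place of 0.29, while NEFM stands at 1.76 in place of 1.71.

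Day 7 was then compared with day 4. Averaged over both doses, 13 of the 14 neuron genes had estimates below those of day 4, with a median of -0.42 against 0.07 over all probes, and 1 of 37 members was called lower and 0 higher, against 4.44% of all probes, 2.06% lower and 2.38% higher. An unadjusted p under 0.05 was found for 8 members and 38.1% of all probes. The called gene was VIP, a neuropeptide of enteric neurons that relaxes muscle and widens vessels. It read -0.11, 1.18, 0.63 and -1.71 on day 4 after 6.7 Gy and 0.86, 1.20, 0.14 and 0.90 on day 4 after 7.4 Gy. On day 7 it read -0.41, -1.01, -0.12 and 0.47 after 6.7 Gy and -0.99, -0.43 and -1.80 on the 3 arrays of 7.4 Gy with a usable spot. The days overlapped. The lowest day 4 array, at -1.71, was below all day 7 arrays but 1, and the highest day 7 array, at 0.47, was also above the day 4 arrays at -0.11 and 0.14.

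The change in VIP from day 4 to day 7 was -1.06 ± 0.37 (adjusted p = 0.0418), and its other probe, well above background on all 24 arrays, was lower by 1.14 (log2 change -1.14, adjusted p = 0.0155). Within slides 1, 3, 4, 5 and 6 the difference lay between -1.46 (slide 6) and -0.74 (slide 4), and within slide 2 it was 0.30. Within the scan days it was -0.54 (3 arrays against 2) and -0.96 (4 against 6). These within-slide and within-scan-day differences pooled the doses. Slides 3 and 4 set a 7.4 Gy day 4 array against a 6.7 Gy day 7 array, and slides 2, 5 and 6 held both doses. Only slide 1 compared like doses, with 1 array of each day, so dose differed along with day on the rest. With scan day as a block the change was -0.94 (adjusted p = 0.0664). Day 4 and day 7 arrays never shared a position on the slide, so day and position cannot be told apart. The call also ended when any 1 of 11 arrays was left out, with log2 changes from -1.08 to -0.86: replicates 1, 2 and 3 of 6.7 Gy day 4, replicates 1, 2 and 4 of 7.4 Gy day 4, replicates 1, 2 and 3 of 6.7 Gy day 7 and replicates 1 and 4 of 7.4 Gy day 7.

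Against control VIP was not called in any group. The controls read 0.46, 0.18, 0.71 and -0.51, and the day 12 arrays read -0.51 and 0.34 after 6.7 Gy and -0.35 and 0.63 after 7.4 Gy. The lowest estimate was that of 7.4 Gy day 7, at -1.28 ± 0.54 (adjusted p = 0.371), where 2 of the 3 arrays lay below every control. The dose difference of VIP on day 7 minus that on day 4 was -1.58 ± 0.74 (adjusted p = 0.994).

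At an adjusted p under 0.05 with no fold minimum, 5 of the 37 members separated day 7 from day 4, 1 higher and 4 lower, against 14.6% and 11.4% of all probes. Beside VIP and TPM1 these were UCHL1 (-0.66 ± 0.21, adjusted p = 0.0231), TUBB3 (-0.47 ± 0.13, adjusted p = 0.0135) and GFRA3 (-0.77 ± 0.28, adjusted p = 0.0467). UCHL1 read 1.25, 1.85, 0.51 and 0.54 on day 4 after 6.7 Gy, 1.42, 2.17, 1.76 and 1.55 after 7.4 Gy, and 0.53, 0.20, 1.13 and 0.63, then 0.90, 0.95, 1.32 and 0.09, on day 7. All 4 of the 7.4 Gy day 4 animals were above all 8 day 7 animals for this gene, while those of 6.7 Gy day 4 were spread across them.

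The glia genes gave no call. SOX10 read -0.83, -0.51, -0.82 and -0.49 in the controls and -1.14, -0.95, -0.89 and -1.12 on day 4 after 7.4 Gy, where all arrays were below the controls. The change was -0.36 ± 0.12 (adjusted p = 0.0445), well short of 2-fold. The 6.7 Gy day 4 arrays read -0.86, -0.97, -0.89 and -0.70, the day 7 arrays -0.82, -0.62, -1.04 and -0.80, then -0.61, -0.85, -0.59 and -0.74, and the day 12 arrays -0.74 and -0.75, then -0.74 and -1.04. SOX10 thus stayed within a narrow band in every group, and its other changes had adjusted p from 0.344 to 0.955.

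GFRA3, the artemin receptor found on glia and Schwann cell precursors, read -0.58, -0.88, 0.14 and -0.25 in the controls. On day 4 it read -0.04, 0.48, 0.54 and -0.02 after 6.7 Gy and 0.65, -0.30, 0.73 and 0.15 after 7.4 Gy, with changes of 0.63 ± 0.39 and 0.70 ± 0.39 (adjusted p = 0.325 and 0.216). On day 7 it read -0.22, 0.18, -1.30 and -0.88, then 0.25, -0.38, -0.31 and -1.28, and on day 12 0.20 and -1.43, then -0.23 and 0.54. The groups overlapped throughout. GFAP, the glial filament protein, was above background on 4 arrays only, with -2.57 on replicate 4 of 6.7 Gy day 4 and between -7.99 and -4.79 on all other arrays. S100B, a calcium-binding protein of glia, had its lowest estimate on day 12 after 6.7 Gy (-0.89 ± 0.39, adjusted p = 0.668).

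**Figure D5:**
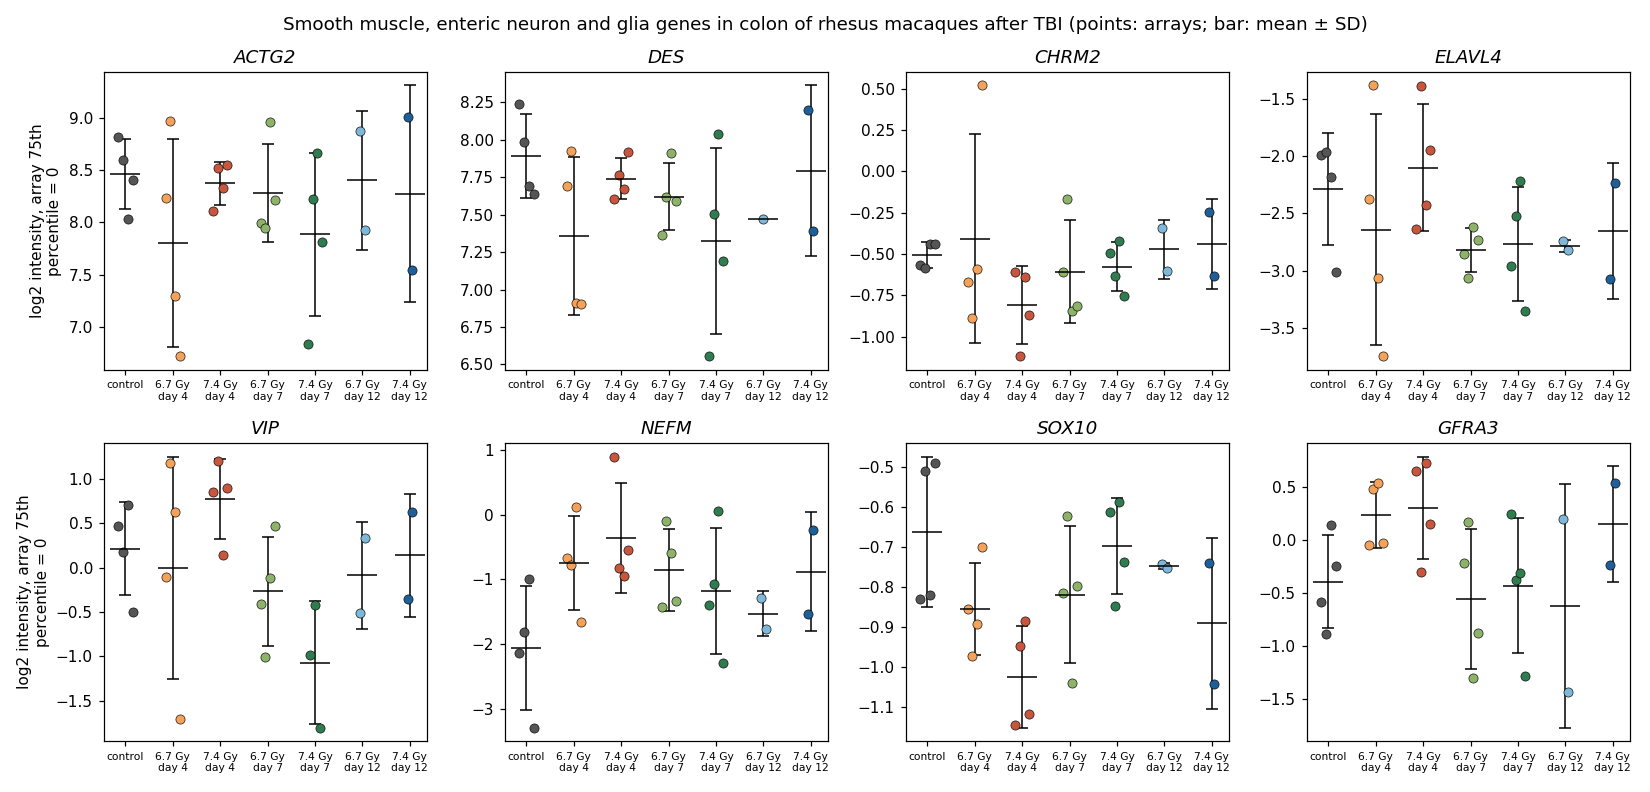
Levels of 8 genes on every array. The y axis is the log2 intensity with the array's 75th percentile at 0 (scales differ between panels), the x axis the 7 groups, points are arrays and bars the mean ± SD. NEFM goes from controls between -3.29 and -0.99 to arrays between -0.94 and 0.90 on day 4 after 7.4 Gy, while ACTG2 spreads from 6.72 to 8.96 within the 6.7 Gy day 4 group.

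No member was called on day 7 or day 12 against control, where 0.322% (6.7 Gy day 7), 0.390% (7.4 Gy day 7), 0.0183% (6.7 Gy day 12) and 0.0262% (7.4 Gy day 12) of all probes were. An unadjusted p under 0.05 was found in those groups for 1, 1, 2 and 2 of the 37 members and for 9.62%, 11.0%, 7.12% and 6.88% of all probes. The neuron medians were -0.08, -0.04, -0.34 and -0.05 in that order. With 1 array left out they ran from -0.18 to -0.04, from -0.14 to 0.04, from -0.51 to -0.20 and from -0.43 to 0.44, the last of these without replicates 2 and 1 of 7.4 Gy day 12. The median of that group under normexp background correction was 0.26, and the medians of both day 7 groups and of 7.4 Gy day 12 were above 0 under spike-in scaling (0.03, 0.12 and 0.24), which raised the median of all probes to 0.09, 0.17 and 0.28 there. With 2 animals a group, day 12 gave wide errors: the 95% interval of the ACTG2 change ran from -1.19 to 1.07 after 6.7 Gy and from -1.32 to 0.94 after 7.4 Gy. Between the doses 0 of 37 members and 0 of all probes were called on any of the 3 days, with an unadjusted p under 0.05 for 4, 0 and 0 members and 6.17%, 1.86% and 3.66% of all probes on days 4, 7 and 12. Between day 12 and day 7, 0 members were called (0.118% of all probes) and 1 had an unadjusted p under 0.05 (9.60%). Between day 12 and day 4, 0 were called (6.51%) and 7 had an unadjusted p under 0.05 (37.3%). TPM1 and CHRM3 had an adjusted p under 0.05 in that comparison, 1 higher and 1 lower, against 14.5% and 9.93% of all probes. The change of the dose difference from day 4 to day 7 gave 0 called members (0.00262% of all probes) and 3 with an unadjusted p under 0.05 (4.05%).

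Related genes of the same tissues were counted by list. Of 29 other smooth muscle genes tested, 1 was called in any group against control: PLN, phospholamban, a brake on the calcium pump of the muscle reticulum, was lower on day 4 after 6.7 Gy (-1.32 ± 0.30, adjusted p = 0.0122), where 1.78% of all probes were called lower. The medians of that list resembled the contractile ones, running over days 4, 7 and 12 from -0.30 through -0.26 to -0.28 after 6.7 Gy and from 0.11 through -0.40 to -0.29 after 7.4 Gy. Of 6 other genes of pacemaker and fibroblast-like cells, GJA1, a gap junction protein, was higher on day 4 after both doses (1.21 ± 0.28 and 1.49 ± 0.26, adjusted p = 0.0121 and 0.000774, with 1.83% and 3.36% of all probes called higher), and PRKCQ, a protein kinase C of pacemaker cells and T cells, was lower on day 7 after 6.7 Gy (-1.09 ± 0.21, adjusted p = 0.028), where 0.222% of all probes were called lower. Of 29 other neuron genes 1 was called, HAND2, a transcription factor of enteric neurons, which was higher on day 4 after 7.4 Gy (1.17 ± 0.37, adjusted p = 0.0311), where 3.36% of all probes were called higher. In that group 16 of the 29 had estimates above control and 13 below, with a median log2 change of 0.19, and 2 were higher and 2 lower at an adjusted p under 0.05. Of 12 other glia and Schwann cell genes, EDNRB, the endothelin receptor of neural crest cells, was called higher there (1.35 ± 0.29, adjusted p = 0.00342). Between days, 3 of the 29 other smooth muscle genes and 1 of the 29 other neuron genes were called lower on day 12 than on day 4. In that comparison 6.51% of all probes were called in either direction. On day 7 against day 4, 1 of the other neuron genes was called higher, with 2.38% of all probes.

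Markers of other cell types differed from control on the same day. On day 4 the epithelial list averaged -0.94 to -0.20 over the 6.7 Gy arrays and -0.85 to -0.44 over the 7.4 Gy arrays, against 0.11 to 0.29 in the controls, and 3 and 4 of its 10 genes were called lower, with 1.78% and 3.68% of all probes. The fibroblast list averaged 0.43 to 0.95 on day 4 after 7.4 Gy against -0.58 to 0.18 in the controls, with 2 of 7 genes called higher, and the pericyte list 0.64 to 0.91 against -0.61 to 0.13, with 1 of 4 called higher. The endothelial list averaged 0.24 to 0.57 there against -0.11 to 0.10, with 1 of 6 called higher, where 3.36% of all probes were. By day 7 the epithelial list was at 0.12 to 0.43, and the leukocyte list at -0.92 to -0.06 against -0.05 to 1.27 in the controls, with 2 of 9 genes called lower at each dose, against 0.222% (6.7 Gy) and 0.259% (7.4 Gy) of all probes. All markers with a probe in these lists were well above background on some arrays, though some on few, such as MS4A1 (3 arrays) and LRRN4 (5). Their part in the changes of the neuron genes was not tested. Among 7 skeletal muscle markers MYH2 was called lower on day 4 after 6.7 Gy and CKMT2 on day 4 after 7.4 Gy, none was called higher, and 5 of the 7 were well above background on 22 arrays or more. None of 6 fat cell or 3 mesothelium markers was called against control.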

How the data were processed

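The RNA of each colon piece was labelled with 1 dye and hybridised to an Agilent rhesus array. The authors deposited the scanner output (Feature Extraction 11.0.1.1), whose processed intensity is background-subtracted and detrended per spot, a table of those signals and a normalized table. The deposited raw table equalled the scanner values within 0.001 log2, and the deposited normalized log2 table was shifted per array and centred on each probe's median over arrays. Here log2 intensity minus the 75th percentile of the array was used, control and outlier spots were left out, spots of a probe were averaged, and probes well above background on 2 or more of 24 arrays were tested (38220 of 43603). Probes were named by symbol (18640) or gene ID (3184). Between 66.6% and 84.8% of probes were well above background per array and 0 spots were saturated. Precision was limited by the 4 or 2 animals a group.

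All groups were fitted together with limma 3.58.1 in R 4.3.3 (lmFit, contrasts.fit, eBayes, two-sided, Benjamini-Hochberg within a contrast), and the scripts were tested on simulated data. Replicates are taken to be separate animals, as the labels and methods describe. Correlations were shuffled 100000 times within groups. The methods' t-test, other scalings and filters, batch blocks, the replicate block and leaving out each array were tried.

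Every listed gene was counted through its brightest probe. Values by array were planned for called genes and for MYH11, ACTG2, ANO1, CHRM2, ELAVL4, VIP, SOX10 and GFRA3, and related genes were named only if called against control. MYH11 and ANO1 were not analysed here, and ACTG2 replaced MYH11 in the correlations. Other genes given by array, such as DES, KCNMB1, STMN2 and UCHL1, were chosen after their values were seen. The genes and lists were chosen with earlier results of these data known. The labels of the samples were followed for the last day, since the treatment text names another day.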

Additional observations from a re-analysis of the deposited data

Results flagged for a closer look

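In 6 of the 181 gene-by-group sets of 4 arrays, the highest or lowest array stood apart from the other 3, where chance gives about 1 in 20. MYOCD was at -2.13 on replicate 3 of 7.4 Gy day 7, with the others between -2.49 and -2.45. PDLIM3, a LIM protein of the muscle cytoskeleton, was at 1.70 on control replicate 2, with the others between 1.23 and 1.29. CHRM3 was at 0.72 on replicate 2 of 7.4 Gy day 7, with the others between 0.31 and 0.36. ELAVL3, an RNA-binding protein of neurons, was at -3.68 on replicate 3 of 6.7 Gy day 7, with the others between -5.94 and -5.77. RET, a receptor of enteric neuron precursors, was at -6.09 on control replicate 4, which was not well above background. S100B was at 0.50 on replicate 1 of 6.7 Gy day 7, with the others between 0.33 and 0.36. VIP was lower on day 7 than on day 4 when averaged over both doses (log2 change -1.06), the only difference between irradiated groups that was called. Its mean went from 0.77 to -1.07 after 7.4 Gy and from -0.002 to -0.27 after 6.7 Gy.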

How the results depend on the processing

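The count of called genes on day 4 after 7.4 Gy was 2 with spike-in scaling (STMN2 and NEFM), 3 with no minimum fold, 14 with array position as a block and 0 with scan day as a block, with only the groups of the contrast and with the methods' t-test. NEFM lost its call under normexp (1.30, adjusted p = 0.0569, with STMN2 called in its place), and, with the change still at 1.71, with only the 2 groups fitted (adjusted p = 0.0734) and under the t-test (adjusted p = 0.137). Leaving out 1 array gave counts from 0 to 1 and NEFM changes from 1.29 to 2.06.

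For day 7 against day 4 the count was 0 with normexp, with the deposited normalized table, with slide or scan day as a block, with only the groups of the contrast and with the t-test, 5 with no minimum fold, 0 to 1 with 1 array left out, and 2 (SYNM and VIP) without replicates 3 and 4 of 6.7 Gy day 4, an alternative chosen after seeing the data. VIP was -0.92 with normexp, -0.89 in the deposited table and -0.87 with the slide block. For day 12 against day 4 the count was 2 with no minimum fold, 1 (MYOCD) without those replicates, and 0 to 1 with 1 array left out, the gene being SNAP25 without replicate 1 of 6.7 Gy day 4 or replicate 2 of 7.4 Gy day 12. For 7.4 against 6.7 Gy on day 4 it was 1 (LMOD1) with the position block. NEFM and VIP kept their direction under every alternative that gave a value. Of the list medians against control 36 moved by more than the SD of the list's mean between arrays of a group and 820 moved by less. Under 6 settings of scaling and probes the median turned sign in 1 of 6 groups for the contractile list, 5 for channels and receptors, 4 for neurons and 4 for glia. The other 487 counts of called genes were within 1.5 times the main count. The cause of these differences was not tested.

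Replicate numbers did not pair the arrays: deviations of same-numbered arrays had a median correlation of 0.00, and 9 of 24 arrays correlated best with their own number. Arrays of the same slide had a median correlation of 0.13, against -0.02 for arrays of different slides. With the replicate block the counts were unchanged (NEFM 1.71, adjusted p = 0.0159, and VIP -1.03, adjusted p = 0.0414).

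The position block could not be fitted for day 7 or day 12 against control or for day 4 against later days, and the t-test could not be had for the change of the dose difference. Spike-in scaling moved the median of all probes by over 0.1 in all groups against control, to between 0.09 and 0.30. Few animals, most of all on day 12, and dim probes of ELAVL3, RET and GFAP limited what could be seen.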
